A study of Mus musculus with 24 samples.

Results

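The genes described here are those that make new fatty acids from acetyl-CoA and then desaturate, elongate and activate them, together with their main regulators. They were chosen by name from a list of 32 genes. A probe with one of these names was kept where, in 1 group or more, each of the 4 arrays read it as well above background. Of the 50 probes with these names, 47 were kept. They covered 31 of the 32 genes, against 33393 of 55681 probes on the whole array. Elovl2, an elongase of polyunsaturated fatty acids, dropped out, its probe being well above background on at most 3 arrays of any group. Elovl4, which makes very long chains, was kept only through B6 brown fat, and Elovl7, another elongase, only through B6 gonadal fat.

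The samples came from male mice of the obese, diabetes-prone strain NZO/HiBomDife (New Zealand Obese, NZO) and of the lean strain C57BL/6 (B6). All had a diet with 45% fat, and the labels give an age of 6 weeks. The 6 groups were NZO and B6 gonadal white fat (gWAT), NZO and B6 brown fat (BAT) and NZO and B6 skeletal muscle, with 4 single-colour arrays in each. The labels do not say whether the samples of a group came from separate animals, so the tests measure the spread between samples only. A level below is the log2 signal of a probe minus the log2 75th percentile of its array. A strain difference is NZO minus B6, with its standard error (SE). A gene was called where the limma fit across all probes tested gave an adjusted p under 0.05.

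Fatty acid synthesis starts from cytosolic acetyl-CoA, made from citrate by ATP citrate lyase or from acetate by an acetyl-CoA synthetase. Acetyl-CoA carboxylase turns it into malonyl-CoA, and fatty acid synthase joins these units into palmitate with NADPH from malic enzyme and the pentose phosphate pathway. Elongases and desaturases then make longer and unsaturated chains, and acyl-CoA synthetases activate fatty acids for storage or oxidation. The pathway is active in liver and in white and brown fat, and is driven by the transcription factors SREBP-1c, ChREBP and LXRα.

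The levels of marker genes of other cell types differed between arrays and groups, as shown in the plot of marker signals. B6 muscle replicate 011 had a summed adipocyte marker signal of 9.57, against 6.87 to 7.37 on the other 3 B6 muscle arrays. It was left out of all fits unless said otherwise. The summed muscle fibre signal of 7 markers was 0.41 to 2.68 in NZO BAT and 7.45 to 9.46 in B6 BAT, and all 7 markers were called lower in NZO BAT. The summed macrophage signal was 7.38 to 7.68 in NZO gWAT and 5.85 to 6.23 in B6 gWAT, with all 7 markers called higher. The brown adipocyte signal was 6.47 to 7.29 in NZO gWAT and 3.88 to 4.88 in B6 gWAT, with 5 of 6 markers called higher. Adipocyte markers were present in both, at a summed signal of 10.54 to 11.15 in NZO gWAT and 10.90 to 11.22 in B6 gWAT, where 2 of the 6 markers were called higher and 3 lower. The hepatocyte signal varied between arrays of the same group, from 3.45 to 7.48 in NZO gWAT and from 2.60 to 7.13 in B6 gWAT. In bulk tissue, fewer cells of a type and less RNA per cell cannot be told apart.

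**Figure D1:**
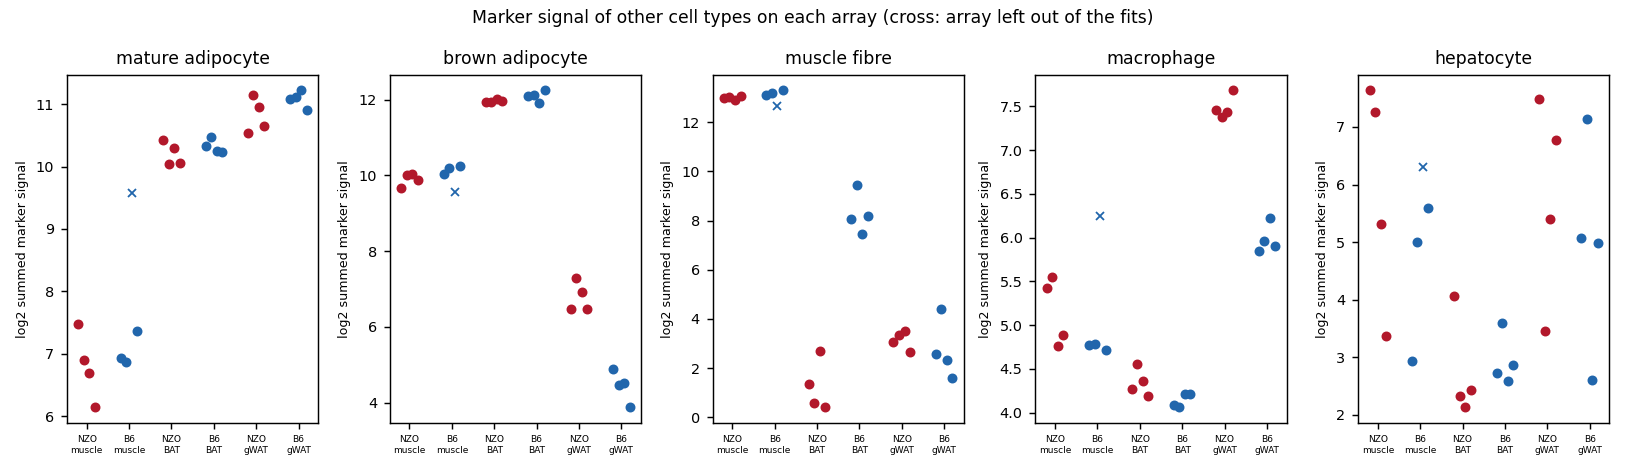
Summed signal of marker genes (log2, after scaling to the array's 75th percentile) on each array, with NZO in red and B6 in blue. Muscle fibre signal was high in B6 BAT, macrophage and brown adipocyte signal was higher in NZO gWAT, and B6 muscle replicate 011 (cross) had the adipocyte signal of 9.57.

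In gonadal white fat, 12 of the 29 genes tested were lower in NZO and 3 were higher, where the same test called 17.4% of all 30614 probes lower and 14.9% higher. The genes that fell included those for fatty acid synthase, acetyl-CoA carboxylase 1, malic enzyme, the stearoyl-CoA desaturases Scd1, Scd3 and Scd4 and the Δ5 desaturase Fads1. The median strain difference of the 29 genes was -0.68, against -0.04 over all probes tested. It was -0.33 without B6 replicate 009, -0.33 with no filter on dim probes and -0.38 with normexp background correction. The 29 genes include Elovl7 (-1.42), kept only through B6 gWAT, so the filter favoured its sign. With arrays centred on their median, 8 genes were lower and 4 higher, with a median of -0.39 for these genes and 0.25 for all probes. By role, 2 of 4 genes of acetyl-CoA and malonyl-CoA supply, 4 of 7 desaturases and 2 of 5 regulators fell. Of the 4 genes of malic enzyme and the pentose phosphate pathway, Me1 and Tkt fell. G6pdx and Pgd, which make NADPH in that pathway, were not called. None of these groups had a gene that rose. Of 4 elongases tested 1 fell and 2 rose, and of 4 acyl-CoA synthetases 1 rose. The plot of strain differences shows all of these values.

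**Figure D2:**
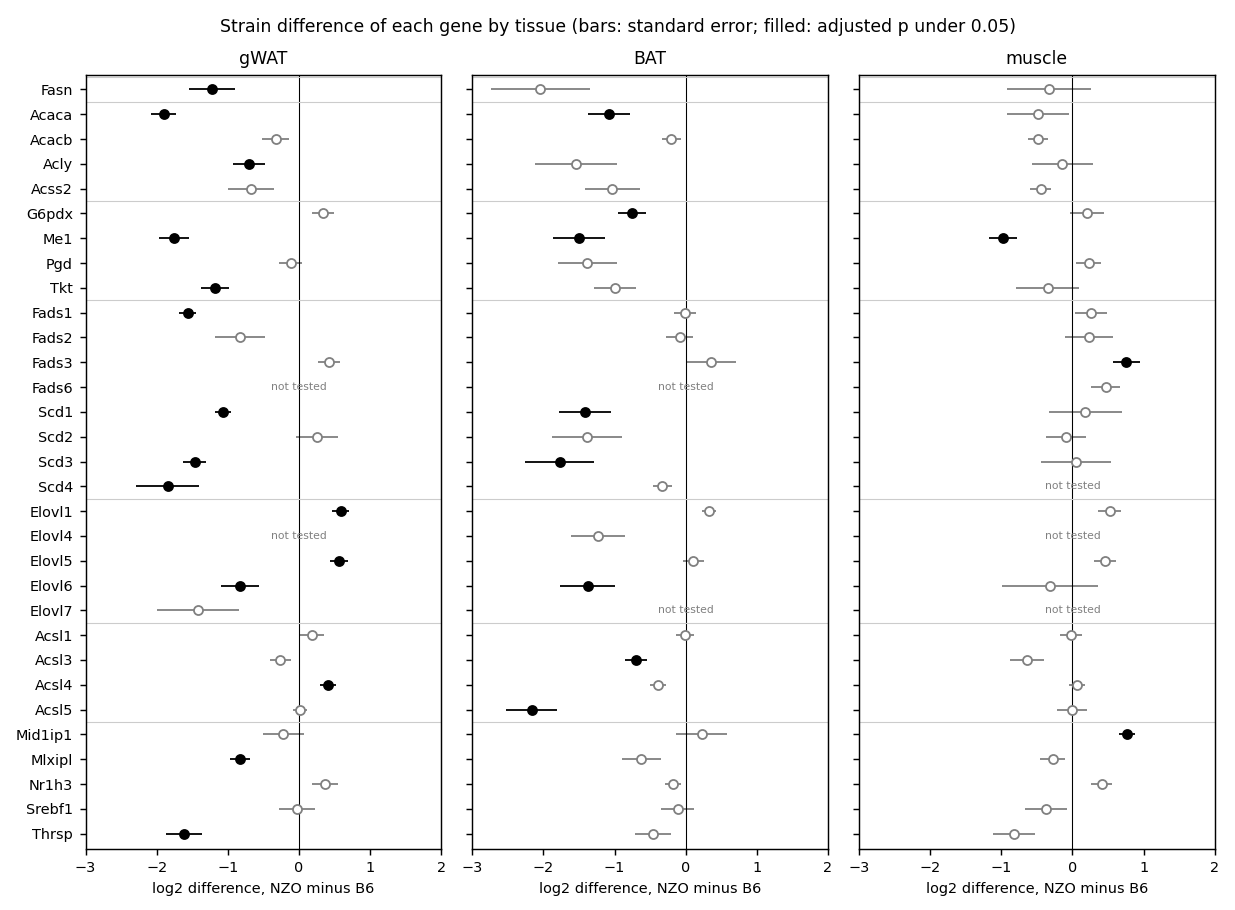
Strain difference of each gene (log2, NZO minus B6) with its standard error in gWAT, BAT and muscle, grouped by role with grey lines between roles. Filled points passed the test: 15 in gWAT, 8 in BAT and 3 in muscle.

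Fasn, the gene of fatty acid synthase, was at 3.51, 3.53, 3.43 and 3.34 on the NZO gWAT arrays and at 5.55, 5.01, 4.04 and 4.10 on the B6 gWAT arrays. The NZO arrays lay close together and all below the B6 arrays, which split into a higher and a lower pair. The difference was -1.22 (SE 0.32, adjusted p = 0.0225), or 2.33-fold lower in NZO gWAT. That call was lost when replicate 009 of NZO (adjusted p = 0.0547) was left out, and likewise replicate 010 of B6 (adjusted p = 0.0639). It was also lost without the 3 gWAT arrays with a hepatocyte signal above 6 (difference -1.08, adjusted p = 0.166), an alternative chosen after these signals were seen, which leaves 2 NZO and 3 B6 arrays. In all, 8 of 20 alternatives lost it, among them slide as a block (adjusted p = 0.195), the replicate block (adjusted p = 0.121) and all arrays in one fit (adjusted p = 0.114).

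Acaca encodes acetyl-CoA carboxylase 1, the enzyme that commits acetyl-CoA to fatty acid synthesis. It was at 5.48, 5.27, 5.35 and 5.23 in NZO gWAT and at 7.59, 7.41, 7.13 and 6.80 in B6 gWAT, a gap of more than 1 unit between the groups. It was 3.73-fold lower in NZO (difference -1.90, SE 0.17, adjusted p = 0.000147), and its other 3 probes gave differences of -2.12, -1.89 and -1.83. Of the 4 Acaca probes, 2 are shifted by 1 base from each other, so they are not separate measurements. Acly, ATP citrate lyase, was 1.64-fold lower in NZO gWAT (difference -0.71, SE 0.22, adjusted p = 0.0424), a call that 12 of 20 alternatives lost. Acacb, the carboxylase of the mitochondrial surface (difference -0.33, SE 0.18), missed the threshold, as did Acss2, which makes acetyl-CoA from acetate (difference -0.68, SE 0.32). The other Acss2 probe had the opposite sign (0.47, SE 0.34) and did not pass.

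Me1 encodes malic enzyme 1, a source of cytosolic NADPH. Its levels were 5.14, 5.22, 5.41 and 4.84 in NZO gWAT and 7.40, 7.08, 6.61 and 6.57 in B6 gWAT, so all NZO arrays were lower. The difference was -1.76 (SE 0.21, adjusted p = 0.000593), or 3.39-fold, and its other probes gave -1.62 and -2.52. Tkt, the transketolase of the pentose phosphate pathway, was at 6.12, 6.46, 6.26 and 6.11 in NZO gWAT and at 7.85, 7.58, 7.29 and 6.96 in B6 gWAT. It was 2.27-fold lower in NZO (difference -1.18, SE 0.20, adjusted p = 0.00285), with adjusted p = 0.0549 without the arrays of high hepatocyte signal. G6pdx and Pgd are the dehydrogenases that make NADPH in that pathway. Their differences of 0.34 (SE 0.15) and -0.12 (SE 0.16) missed the threshold.

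Among the desaturases, Scd1 makes oleate and palmitoleate and is the main isoform of fat. It was at 7.25, 7.37, 7.46 and 7.18 in NZO gWAT and at 8.51, 8.31, 8.29 and 8.43 in B6 gWAT, 2.10-fold lower in NZO (difference -1.07, SE 0.11, adjusted p = 0.000233). Arrays of a group lay close together and the groups did not overlap, though the call was lost with slide as a block (adjusted p = 0.0510). Scd4, a desaturase gene best known from heart, was at -3.03, -4.63, -5.10 and -3.29 in NZO gWAT and at -2.29, -2.09, -1.94 and -2.34 in B6 gWAT (difference -1.85, SE 0.45, adjusted p = 0.0154). This was near the background, and NZO replicate 009 was not well above it.

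Fads1, the Δ5 desaturase of arachidonate synthesis, was at 0.78, 0.57, 0.65 and 0.67 in NZO gWAT and at 2.31, 2.35, 1.97 and 2.30 in B6 gWAT. It was 2.96-fold lower in NZO (difference -1.57, SE 0.12, adjusted p = 5.31e-05), the lowest adjusted p of these genes in gWAT. Its neighbours on chromosome 19 did not pass: Fads2, the Δ6 desaturase, differed by -0.83 (SE 0.35) and Fads3 by 0.42 (SE 0.15). The probes of these 3 genes lie at chr19:10132641-10270589 on mm9, the build of the files. Those of Scd1 to Scd4 lie at chr19:44289995-44469446.

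Scd3, a skin desaturase gene in that second cluster, was at 2.37, 2.15, 2.20 and 2.07 in NZO gWAT and at 3.80, 3.51, 3.35 and 4.0 in B6 gWAT (difference -1.47, SE 0.16, adjusted p = 0.000333). This value belongs to the brightest Scd3 probe, at chr19:44289995-44290054, which lies apart from the other Scd3 probes at 44316703 and 44318249. The other kept Scd3 probe differed by -0.53 in gWAT (adjusted p = 0.132) and by 0.53 in BAT (adjusted p = 0.0382), where the brightest probe gave -1.77. The 2 probes thus gave opposite directions in BAT, and the Scd3 values are uncertain. The target of the brightest probe was not checked here, so whether its signal is that of Scd3 alone was not tested. Scd2, the isoform of brain and developing tissues, differed by 0.25 (SE 0.30) in gWAT and did not pass.

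Of the elongases, Elovl6 lengthens the palmitate made by fatty acid synthase and fell with it, by 0.83 (SE 0.27, adjusted p = 0.0473) on the log2 scale. Elovl1, which makes saturated very long chains, was 1.5-fold higher (difference 0.58, SE 0.13, adjusted p = 0.00955), and Elovl5, which lengthens polyunsaturated chains, was 1.47-fold higher (difference 0.56, SE 0.13, adjusted p = 0.0127). The rise of Elovl1 and Elovl5 kept its call under all 19 and 20 alternatives in which each was tested, and the fall of Elovl6 lost its call under 13 of 20. Elovl7 did not pass (adjusted p = 0.0932). It was well above background on 2 of the 4 NZO gWAT arrays, and replicate 015 of B6 stood apart at -1.39, against -4.16 to -3.72 on the other 3. Acsl4, an acyl-CoA synthetase that prefers arachidonate, was 1.32-fold higher (difference 0.40, SE 0.11, adjusted p = 0.0296), a call that 7 of 20 alternatives lost, while Acsl1, the main synthetase of adipocytes, Acsl3 and Acsl5 did not pass.

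The regulators did not move together. Thrsp, the Spot 14 gene that responds to thyroid hormone and carbohydrate, was at 6.25, 6.54, 6.13 and 6.22 in NZO gWAT and at 8.60, 7.77, 7.29 and 7.94 in B6 gWAT. It was 3.07-fold lower in NZO (difference -1.62, SE 0.26, adjusted p = 0.00226) with no overlap of the groups. Mlxipl, the gene of ChREBP, was at 4.05, 3.61, 3.67 and 3.74 in NZO gWAT and at 4.83, 4.49, 4.42 and 4.65 in B6 gWAT, and was 1.78-fold lower (difference -0.83, SE 0.14, adjusted p = 0.00325; 0.0572 with arrays centred on their median). Srebf1, the gene of SREBP-1, was at 1.18, 1.73, 1.5 and 0.97 in NZO gWAT and at 2.04, 1.1, 1.33 and 1.03 in B6 gWAT, where the groups overlapped throughout (difference -0.03, SE 0.26, adjusted p = 0.945). Nr1h3, which encodes LXRα (difference 0.36, SE 0.18), and Mid1ip1, whose product binds acetyl-CoA carboxylase (difference -0.22, SE 0.28), missed the threshold. The macrophage, brown adipocyte and hepatocyte signals above were on the same gWAT arrays, and their part in these differences was not tested.

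Fasn, Thrsp and Tkt, which fell in NZO gWAT, are shown with their promoters, because CCAAT boxes bound by NF-Y and GC boxes bound by Sp1 are known elements of lipogenic promoters. The sequences are RefSeq's on GRCm38.p6, 300 bases around the start of the gene and mostly upstream of it, on the gene's strand, with capitals marking each CCAAT, which reads ATTGG on the other strand, and each GGGCGG, which reads CCGCCC there. The Fasn window is chr11:120824498-120824797 on the minus strand, the Thrsp window chr7:97417501-97417800 on the minus strand and the Tkt window chr14:30548881-30549180 on the plus strand.
Fasn: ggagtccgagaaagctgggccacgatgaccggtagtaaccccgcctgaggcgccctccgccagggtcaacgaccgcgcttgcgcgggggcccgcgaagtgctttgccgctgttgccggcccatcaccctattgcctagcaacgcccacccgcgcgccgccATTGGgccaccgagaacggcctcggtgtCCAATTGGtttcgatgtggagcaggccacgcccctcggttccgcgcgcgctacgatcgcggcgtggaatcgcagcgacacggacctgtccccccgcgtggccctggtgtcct
Thrsp: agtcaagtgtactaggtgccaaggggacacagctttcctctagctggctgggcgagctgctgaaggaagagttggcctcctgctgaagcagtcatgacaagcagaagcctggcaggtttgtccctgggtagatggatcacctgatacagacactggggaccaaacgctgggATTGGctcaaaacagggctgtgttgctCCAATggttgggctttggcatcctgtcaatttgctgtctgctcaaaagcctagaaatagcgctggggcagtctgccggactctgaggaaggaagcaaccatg
Tkt: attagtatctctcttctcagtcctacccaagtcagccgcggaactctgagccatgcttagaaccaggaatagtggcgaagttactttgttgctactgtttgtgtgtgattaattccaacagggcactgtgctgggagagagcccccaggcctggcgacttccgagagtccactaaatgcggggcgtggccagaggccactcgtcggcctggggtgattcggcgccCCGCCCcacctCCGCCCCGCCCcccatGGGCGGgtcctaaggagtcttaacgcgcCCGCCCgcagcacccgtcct
The Fasn window held 3 CCAAT boxes, 2 of which overlap on opposite strands, and the Thrsp window held 2. The Tkt window held 5 GC boxes and no CCAAT box, and 2 of the GC boxes overlapped. A window was at hand for 29 of the 32 genes, counting a gene if any of its start sites had the motif. CCAAT stood in 16 of these 29 genes (55.2%), against 41.1% of the 27025 genes with such a window, and GGGCGG in 19 (65.5%), against 38.2%. The E-box CACGTG stood in 3 (10.3%), against 8.09%, and not in the windows printed. A gene with more windows has more chances of a match. By window, CCAAT stood in 17 of 38, against 37.4% of all 32851 windows. GGGCGG stood in 21 of the 38, against 35.7%, and CACGTG in 3, against 7.15%. The windows of Acaca, Elovl6, Scd3 and Scd4, which also fell in NZO gWAT, held none of these motifs. Acly, Me1 and Mlxipl, which fell as well, had a motif in at least 1 window. No window was at hand for Scd1 and Fads1. A match describes the letters of these windows only, and a link to the strain differences was not tested.

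In brown fat, limma called 8 of 29 genes tested lower in NZO and none higher, by the brightest probe of each. The same test called 8.34% of all 29055 probes lower and 7.39% higher. At an unadjusted p under 0.05 by limma, 17 genes were lower and 1 higher. The share of all probes at that unadjusted threshold was not counted. Acyl-CoA synthetase Acsl5, acetyl-CoA carboxylase 1, malic enzyme, Scd1, Scd3 by its brightest probe, the elongase Elovl6, G6pdx and Acsl3 fell. By limma, the dimmer Elovl1 probe was called higher (difference 0.30, adjusted p = 0.0255), where the brightest gave 0.33 (adjusted p = 0.0629). The dimmer Acacb probe was called lower (difference -0.52, adjusted p = 0.0392). The median difference of the 29 genes was -0.70, against -0.01 over all probes, and 25 of the 29 differences were below 0. Elovl4 (-1.23), kept only through B6 BAT, is among these 25, a sign that the filter favoured. Each of the 7 genes other than Acsl5 lost its call with some array left out, and limma called 2, 3, 2, 1 and 1 genes without NZO replicate 009 and B6 replicates 010, 011, 015 and 009. Over all probes, 3138, 3712, 3796, 3538 and 3465 were called in these fits, against 4569 in the main fit. The shares of all probes were not counted there, so an excess of these genes over them was not shown.

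Acsl5, a synthetase that activates fatty acids for triacylglycerol synthesis and oxidation, differed most. It was at 1.89, 2.97, 2.37 and 3.74 in NZO BAT and at 5.12, 4.73, 5.06 and 4.72 in B6 BAT, with every NZO array almost 1 unit or more below the lowest B6 array. It was 4.49-fold lower in NZO (difference -2.17, SE 0.36, adjusted p = 0.00502) and was the 1 gene in BAT that kept its call under all 19 alternatives. In gWAT the levels of Acsl5 overlapped (difference 0.01, SE 0.10).

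Fasn had the second-largest difference in BAT, -2.05, but its SE was 0.70 and it did not pass (adjusted p = 0.0891). It was at 2.90, 6.06, 4.90 and 6.48 in NZO BAT and at 7.32, 7.18, 6.99 and 7.06 in B6 BAT. All NZO arrays were below all B6 arrays, and NZO replicate 003 was at the lowest level by 2 units. Without replicate 011 of NZO BAT the difference was -2.51 (adjusted p = 0.0460), and without replicate 003 it was -1.32 (adjusted p = 0.0574). Fasn passed with slide as a block (difference -2.55, adjusted p = 0.0291), with the replicate block (adjusted p = 0.0225) and with all arrays in one fit (adjusted p = 0.0211). All of these fits pooled the spread over all tissues, and the last had no block. The standard deviation (SD) of Fasn was 1.61 in NZO BAT and 0.09 to 1.01 in the other groups.

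Acaca was at 7.29, 8.57, 7.98 and 8.74 in NZO BAT and at 9.33, 9.39, 9.0 and 9.17 in B6 BAT, 2.11-fold lower in NZO (difference -1.08, SE 0.30, adjusted p = 0.0455). Me1 was at 4.29, 6.06, 5.37 and 5.95 in NZO BAT and at 7.01, 7.16, 6.65 and 6.85 in B6 BAT, 2.82-fold lower (difference -1.5, SE 0.37, adjusted p = 0.0280). In both genes replicate 003 was lowest and the groups did not overlap. Acly differed by -1.55 (SE 0.57), Acss2 by -1.03 (SE 0.38) and Pgd by -1.38 (SE 0.41), each with some overlap of the groups, and none of them passed. Tkt differed by -1.0 (SE 0.29, adjusted p = 0.0547). Under the alternatives tried, Acly passed in 4, Acss2 in 2, Pgd in 8 and Tkt in 8, all of them with the replicate block and, except Acss2, with slide as a block. Each also passed with all arrays in one fit, without a block, and the block fits likewise pooled all tissues. G6pdx was 1.68-fold lower (difference -0.75, SE 0.20, adjusted p = 0.0363).

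Scd1 was at 6.13, 7.98, 7.61 and 7.28 in NZO BAT and at 8.94, 8.47, 8.52 and 8.75 in B6 BAT, 2.67-fold lower in NZO (difference -1.42, SE 0.36, adjusted p = 0.0324). The brightest Scd3 probe was at 0.73, 3.29, 2.47 and 2.12 in NZO BAT and at 4.45, 3.76, 3.66 and 3.83 in B6 BAT (difference -1.77, SE 0.49, adjusted p = 0.0435), with the other probe opposed as given above. Elovl6 was at 4.44, 6.03, 5.26 and 6.42 in NZO BAT and at 7.14, 6.88, 6.84 and 6.79 in B6 BAT, 2.59-fold lower (difference -1.38, SE 0.39, adjusted p = 0.0476). Both desaturase and elongase levels on NZO replicate 003 were the lowest of the group. For Fads1 and Fads2, the desaturases of polyunsaturated fatty acids, the differences were -0.01 (SE 0.16) and -0.09 (SE 0.19). Acsl3, a synthetase of lipid droplets, was 1.62-fold lower (difference -0.70, SE 0.16, adjusted p = 0.0190).

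None of the 5 regulators passed in BAT. Mlxipl was at 6.01, 6.15, 5.84 and 7.02 in NZO BAT and at 7.14, 7.17, 6.64 and 6.55 in B6 BAT (difference -0.62, SE 0.27, adjusted p = 0.178). Srebf1 was at 1.20, 1.52, 1.34 and 1.99 in NZO BAT and at 1.65, 1.1, 1.75 and 1.99 in B6 BAT (difference -0.11, SE 0.23, adjusted p = 0.801). The groups overlapped for both genes. The other Mlxipl probe differed by 0.08 (adjusted p = 0.753 by limma). Thrsp differed by -0.46 (SE 0.25, adjusted p = 0.277).

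**Figure D3:**
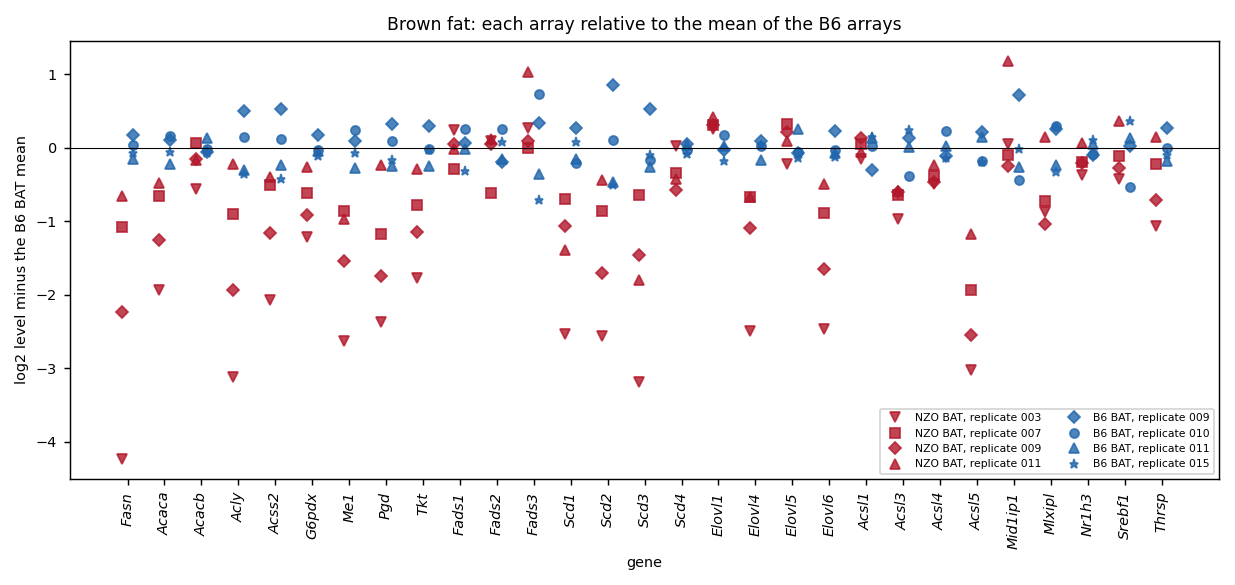
Level of each gene tested in BAT on each array minus the mean of the 4 B6 BAT arrays (log2), with NZO in red and B6 in blue and a marker shape per replicate. Replicate 003 of NZO was the lowest NZO array for most genes and reached more than 4 units below the B6 mean for Fasn.

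The NZO BAT arrays ranked in much the same way from gene to gene, as the plot of BAT arrays shows. Replicate 003 was the lowest of the 4 NZO arrays for 22 of the 28 genes well above background on all of them, and replicate 011 the highest for 20. The median SD over the 28 genes was 0.53 in NZO BAT and 0.22 in B6 BAT, and the SD was larger in NZO for 21 of them. The order of the arrays and the SD were not counted over all probes, so neither is shown to be particular to these genes. The share well above background was 52.9% on replicate 003 and 59.9% on replicate 011. It was 56.7% on replicate 009 and 58.6% on replicate 007. Replicate 003 had the highest hepatocyte signal of the NZO BAT arrays (4.06, against 2.13 to 2.43) and the highest adipocyte signal (10.42, against 10.03 to 10.30), and the brown adipocyte signal was 11.94 to 12.01 on all 4. Muscle fibre transcripts were present in B6 BAT as given above. Of the 8 genes lower in NZO BAT, 7 were lower in B6 muscle than in B6 BAT, and Acsl3 was 0.83 higher in B6 muscle. This is near the rate of the whole list, where 4 of 30 genes were higher in B6 muscle by sign. Of all probes, 45.0% were higher there. The part of these marker signals in the BAT differences was not tested.

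In muscle, 2 of 28 genes tested were higher in NZO and 1 lower, near the 4.67% of all 28973 probes called higher and the 6.36% called lower. The median difference was -0.01, against -0.04 over all probes. Me1, at 5.08, 4.69, 5.25 and 5.22 in NZO muscle and 6.26, 6.13 and 5.71 in B6 muscle, was 1.97-fold lower (difference -0.98, SE 0.19, adjusted p = 0.0208), and its 3 probes ranged from -1.77 to -0.49. Mid1ip1 was at 3.42, 3.57, 3.46 and 3.30 in NZO muscle and at 2.66, 2.58 and 2.77 in B6 muscle, 1.70-fold higher (difference 0.77, SE 0.11, adjusted p = 0.00573). Fads3, a desaturase homologue that acts on sphingoid bases, was at 1.88, 1.63, 1.41 and 1.14 in NZO muscle and at 0.72, 0.64 and 0.92 in B6 muscle (difference 0.76, SE 0.19, adjusted p = 0.0447). In each of these 3 genes the groups did not overlap.

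The muscle calls rested on the choice of arrays. B6 muscle replicate 011 had Fads3 at 5.22, and with it included the Fads3 difference was -0.36 (adjusted p = 0.894) and 2 genes were called. Without the 2 NZO muscle arrays with a hepatocyte signal above 6, limma called 0 genes of the list, where unadjusted p-values under 0.05 numbered 2 among higher and 2 among lower genes. Without NZO replicate 003, B6 replicate 010 or B6 replicate 009 it called 1. Fasn was at 0.74, -0.98, 0.54 and -0.61 in NZO muscle and at -0.56, 1.38 and -0.08 in B6 muscle, a wide and overlapping spread (difference -0.32, SE 0.59). Scd1 was at 4.34, 2.50, 4.11 and 2.73 in NZO muscle and at 3.0, 3.78 and 2.94 in B6 muscle, and Srebf1 at -1.09, -1.40, -1.42 and -2.01 in NZO muscle and at -0.64, -1.02 and -1.67 in B6 muscle. Mlxipl was at 4.15, 4.5, 4.74 and 4.20 in NZO muscle and at 4.87, 4.63 and 4.53 in B6 muscle. The summed adipocyte signal on these arrays was 6.15 to 7.47 in NZO muscle and 6.87 to 7.37 in B6 muscle, and its part in the spread was not tested.

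**Figure D4:**
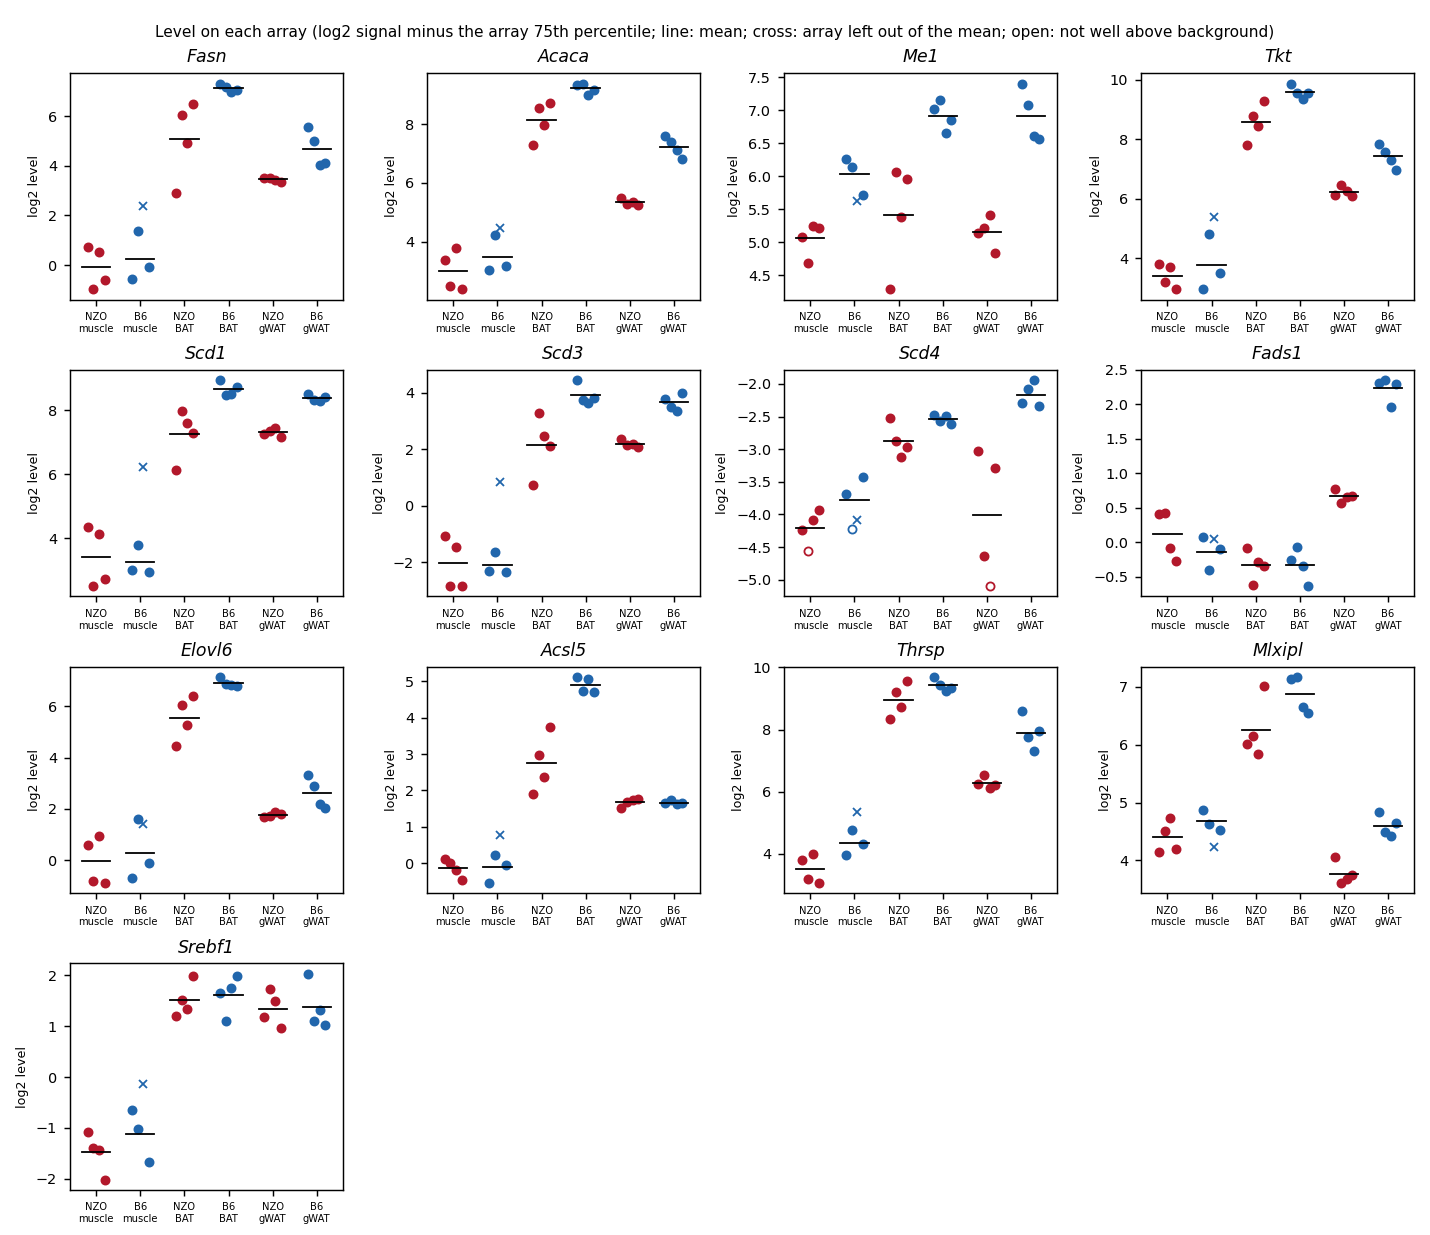
Level on each array (log2 signal minus the 75th percentile) of 13 genes in the 6 groups, with NZO in red and B6 in blue and a line at the mean. NZO points lie below B6 points for Fasn, Acaca, Me1 and Scd1 in gWAT and BAT, for Fads1 in gWAT and for Acsl5 in BAT, and overlap for Srebf1 in all 3 tissues.

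Across tissues, 20 of the 31 genes were called in at least 1 strain comparison and 11 in none. Acaca, Me1, Scd1 and Elovl6 were lower in NZO in both fats, and Me1 in all 3 tissues. Scd3 was lower in both fats by its brightest probe only, and in BAT the mean of its probes differed by -0.62 (adjusted p = 0.141). By the brightest probe of each gene, no gene was called in opposite directions in different tissues in the main fits. Acsl4, called higher in gWAT, differed by -0.39 in BAT and narrowly missed the threshold by limma (adjusted p = 0.0525). It was called lower in BAT under 4 alternatives, among them all arrays in one fit, where its gWAT call also held. Whether the strain difference itself differed between tissues was tested for 30 genes in each pair of tissues, over 23 arrays.

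For BAT against gWAT, 7 of 30 genes differed in their strain effect, where 19% of 31996 probes did. Acsl5 (difference of differences -2.18, SE 0.38, adjusted p = 0.000506), Pgd (-1.26, adjusted p = 0.0416), G6pdx (-1.09, adjusted p = 0.0115) and Acsl4 (-0.79, adjusted p = 0.000841) were lower in NZO BAT relative to the effect in gWAT. Fads1 (1.56, adjusted p = 0.000129), Scd4 (1.51, adjusted p = 0.0267) and Thrsp (1.15, adjusted p = 0.0479) had the larger fall in gWAT. For muscle against gWAT, 3 of 30 genes differed, against 19.7% of 32651 probes: Fads1 (1.83, adjusted p = 4.67e-05), Scd4 (1.42, adjusted p = 0.0431) and Acaca (1.42, adjusted p = 0.0465). Scd4 was well above background on 3 of 4 NZO and 2 of 3 B6 muscle arrays and on 3 of 4 NZO gWAT arrays, and it was not tested for a strain difference within muscle, so its values here are uncertain. For muscle against BAT, 2 of 30 genes differed, against 5.61% of 31491 probes, namely Acsl5 (2.16, adjusted p = 0.00203) and Pgd (1.61, adjusted p = 0.0357). For Fasn none of these 3 tests passed, so its strain effect was not shown to differ between tissues. Centred on the array median, 7 genes were called for BAT against gWAT and 1 in each of the other pairs, and the share of all calls above 0 was 27.7% for BAT against gWAT (against 51.5%) and 19.8% for muscle against gWAT (against 46.0%).

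In BAT against gWAT, 12 of 28 genes were higher in NZO BAT and 7 lower, where 41.1% and 25.5% of all 30084 probes were called. In B6, 14 of 30 were higher in BAT and 5 lower, where 33.9% and 23.8% of 30641 probes were called. Of these, 11 genes were higher in BAT and 3 lower in both strains, and none was opposite. Acacb (3.39, SE 0.16, in NZO and 3.26, SE 0.16, in B6), Elovl6 (3.75, SE 0.49, and 4.30, SE 0.49), Acaca (2.81 and 1.99) and Tkt (2.34 and 2.15) were among the higher, on the log2 scale. Fads3 (-4.09, SE 0.26, in NZO and -4.02, SE 0.26, in B6), Elovl1 (-1.89 and -1.63) and Fads1 (-1.0 and -2.56) were the 3 lower in both. In B6 the 14 higher genes include Elovl4 (2.03) and the 5 lower include Elovl7 (-1.80). Each was kept only through the group where it was higher, so the filter favoured these directions. Centring arrays on their median moved the NZO counts to 7 higher and 8 lower and the B6 counts to 13 and 6, and the share of all calls that were higher to 33.4% in NZO and 42.2% in B6, against 61.7% and 58.8%.

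**Figure D5:**
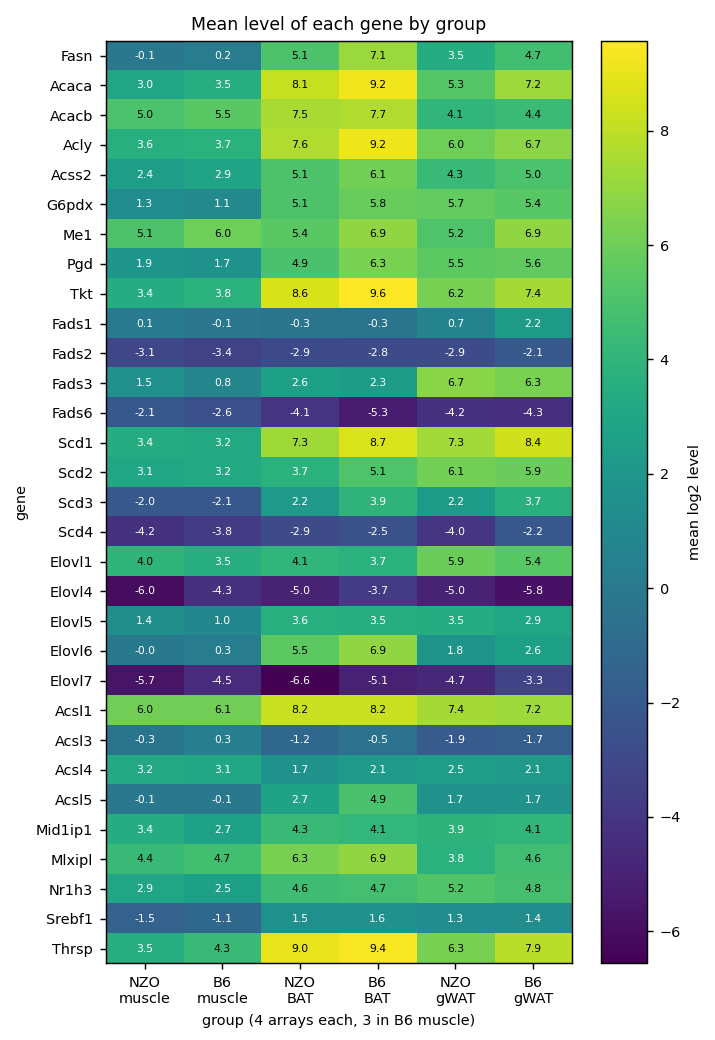
Mean level of each gene (log2 signal minus the 75th percentile) in the 6 groups, 4 arrays each and 3 in B6 muscle. BAT has the highest means for most genes of synthesis, such as Tkt, Thrsp and Acaca, and muscle the lowest. Fads3 is highest in gWAT.

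In muscle most of these genes were low. Against gWAT, 20 of 28 were lower and 5 higher in NZO muscle, where 32.9% and 36.9% of 30417 probes were called, and 24 of 30 were lower and 4 higher in B6 muscle, where 34.1% and 34.8% of 31375 probes were called. Against BAT, 21 of 29 were lower and 4 higher in NZO muscle, where 37.4% and 27% of 30288 probes were called, and 23 of 30 were lower and 3 higher in B6 muscle, where 34.4% and 28.2% of 29825 probes were called. The median muscle difference was -1.97 and -2.22 against gWAT in NZO and B6, and -2.17 and -2.21 against BAT, with all probes between -0.16 and 0.11. Centred on the array median, 21 genes were lower and 2 higher in NZO muscle against gWAT, and the share of all calls that were higher was 32.4%, against 52.9%.

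Fasn was 5.16 (SE 0.60) lower in NZO muscle than in NZO BAT and 6.89 (SE 0.65) lower in B6 muscle than in B6 BAT. Acsl3 and Acsl4 ran the other way, higher in muscle than in BAT and gWAT in both strains (Acsl4 by 1.48, SE 0.10, over NZO BAT and 1.02, SE 0.11, over B6 BAT). Fads6 is a desaturase-like gene with no settled substrate. Its 2 kept probes differed by 1.97 and -0.14 in NZO muscle against NZO BAT, so its direction is uncertain. The counts of genes higher in muscle above include Fads6 by its brighter probe. That probe was kept only through muscle, so the filter favoured this direction. Of the 31 genes, 18 had their highest mean in B6 BAT while 14 had their lowest in NZO muscle and 10 in B6 muscle. Elovl4, kept only through B6 BAT, is among the 18. Levels of different probes are not comparable, so these are orders within a gene.

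A further 33 genes of fatty acid synthesis and its control were listed apart from the 32. In gWAT, of 31 tested, 5 were higher in NZO and 2 lower, with a median of 0.01, where 14.9% and 17.4% of all probes were called. In BAT, 2 were higher and 5 lower of 31, where 7.39% and 8.34% of all probes were called. In muscle, 1 was higher and 2 lower of 31, where 4.67% and 6.36% were called. Elovl3, the elongase of cold-exposed brown fat, was at -5.48, 0.12, -2.64 and 0.88 in NZO BAT and at 3.22, 2.66, 2.98 and 3.94 in B6 BAT. It was lower in NZO BAT (difference -4.98, SE 1.27, adjusted p = 0.0319), with NZO replicate 003 not well above background. Elovl3 differed by -3.75 without that array, a value not tested. Insig1, which holds SREBP in the endoplasmic reticulum and is itself an SREBP target, was at 0.69, 1.53, 0.93 and 1.09 in NZO BAT and at 2.69, 2.20, 1.72 and 2.37 in B6 BAT, 2.27-fold lower (difference -1.18, SE 0.24, adjusted p = 0.0126). Of the 33 genes, these 2 alone were called with a strain difference of at least 2-fold in any of the 3 tissues.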

How the data were processed

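Expression was measured on 24 single-colour Agilent mouse arrays with 60-base probes. Total RNA was isolated with TRIzol, samples with an integrity number above 8 were used and cRNA was labelled with Cy3, per the labels. Feature Extraction 11.0.1.1 read the scans, per the file headers, while the submitters' processing notes name version 9.1. The deposited processed intensity is the program's signal after background subtraction and spatial detrending, per the file headers, with no scaling between arrays. A second deposited table gives 1 intensity per transcript and array: all 37877 values of an array equalled the mean of the median spot intensities within a relative 0.0001. It served as an alternative.

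Intensities were set to log2 after division by the 75th percentile of the 59305 spots that were not controls (134 to 360 units), and spots of a probe were averaged without outlier spots. Between 52.9% and 60.4% of spots were well above background, and the number of arrays limits the precision. Probes well above background on all arrays of a compared group were fitted with limma 3.58.1 (lmFit, eBayes) in R 4.3.3, by tissue for strain differences and over 23 arrays for tissue contrasts and differences of strain effects. Adjusted p are Benjamini-Hochberg values over all probes tested, and each gene stands for its kept probe with the highest mean. The tests were tried on simulated data first. Genes called with a strain difference of at least 2-fold, and Fasn, Scd1, Srebf1 and Mlxipl, are given array by array. The genes, marker lists and tests were chosen with earlier results of these data known. Samples of equal number did not deviate together in all pairs (correlations -0.24 to 0.40 over 20 pairs), so the numbers were not taken as pairs. Figures were drawn with matplotlib 3.10.9. Alternatives covered normalization, background, filters, probes, slide, block, samples and single arrays left out. Slide and replicate blocks were fitted over the arrays of all tissues, so they pooled the spread as all arrays in one fit did.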

Additional observations from a re-analysis of the deposited data

Results flagged for a closer look

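The highest or lowest array of a group of 4 stood apart from the other 3 in 7 of 151 groups examined, by a gap above Dixon's 95% critical value, where chance gives about 1 in 20. Fads1 was at 1.97 on B6 gWAT replicate 011, against 2.30 to 2.35 on the others. Fads2 was at -1.0 on B6 gWAT replicate 015, against -2.52 to -2.28, and at -3.46 on NZO BAT replicate 007, against -2.80 to -2.73. Elovl4 was at -4.24 on NZO gWAT replicate 003, against -5.38 to -5.18, where the others were not well above background. Elovl7 was at -1.39 on B6 gWAT replicate 015, against -4.16 to -3.72. Acsl3 was at -1.47 on NZO BAT replicate 003, against -1.14 to -1.10, and Acsl5 at 1.75 on B6 gWAT replicate 010, against 1.63 to 1.65.

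The strain difference itself differed between tissues for 8 genes by limma over 23 arrays. Of 30 genes tested per pair, 7 were called for BAT minus gWAT, against 19% of all probes. For muscle minus gWAT 3 were called, against 19.7%, and for muscle minus BAT 2, against 5.61%. These counts were near or below the shares of all probes. For BAT minus gWAT it differed by -2.18 for Acsl5, -1.26 for Pgd, -1.09 for G6pdx and -0.79 for Acsl4, and by 1.56 for Fads1, 1.51 for Scd4 and 1.15 for Thrsp. For muscle minus gWAT it differed by 1.83 for Fads1 and by 1.42 for Acaca and for Scd4, which was well above background on 3 of 4 NZO and 2 of 3 B6 muscle arrays and on 3 of 4 NZO gWAT arrays. For muscle minus BAT it differed by 2.16 for Acsl5 and 1.61 for Pgd.

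B6 muscle replicate 011, left out of the fits, was above the highest of the other 3 B6 muscle arrays for 20 of the 31 genes and below the lowest for 5. Its median difference from their mean was 0.98. Fads3 was at 5.22 there, against 0.64 to 0.92, and G6pdx at 4.19, against 0.84 to 1.43.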

How the results depend on the processing

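Of the genes called in a strain comparison, 8 of 15 in gWAT, 1 of 8 in BAT and 0 of 3 in muscle kept the call under every alternative tried for them, and none of the gWAT or BAT genes turned direction. Fads3 in muscle turned to -0.36 with B6 muscle replicate 011 included. The number called in gWAT (15) was 9 from the deposited series table, in which 24 genes were tested, against 29. In BAT (8) it was 1 with no filter on dim probes, 14 with a replicate block (number within strain) and 14 with all arrays in one fit. In muscle (3) it was 5 with quantile normalization or moderated trend, 1 centred on the median or unfiltered, and 0 without arrays of high hepatocyte signal (by limma, where 2 higher and 2 lower genes had unadjusted p under 0.05). The 7 genes whose strain effect differed between BAT and gWAT numbered 4 to 8 with 1 array left out, and 4 without NZO gWAT replicate 009 or 007. For muscle against gWAT (3), quantile normalization and the mean of a gene's probes gave 5, and centring on the median, no filter and slide as a block gave 1. For muscle against BAT (2), quantile normalization gave 5, and centring, no filter, slide as a block, replicate 011 included and the hepatocyte alternative gave 1. With each array left out in turn, 11 to 14 genes were called in gWAT, 1 to 12 in BAT and 1 to 4 in muscle, 1 to 4 for muscle against gWAT and 1 to 3 for muscle against BAT. For muscle against gWAT the count was 1 without NZO gWAT 009 or 007, B6 gWAT 010, 011 or 009, NZO muscle 009 or 003, or B6 muscle 009. For muscle against BAT it was 1 without NZO muscle 009 or 003, B6 muscle 015 or 009, NZO BAT 009 or 003, or B6 BAT 010 or 009. The replicate block, fitted with a correlation of 0.04, changed no other count of calls by over 1.5 times. Over all probes, the main fit in BAT called 4569 and the fit with no filter 3156. The replicate block called 4853 there and all arrays in one fit 4817. Shares of all probes were not counted for these alternatives. The cause of these changes was not tested beyond fewer arrays or more probes. Centring on the array median moved the share of gWAT calls that were higher to 70.1%, against 46.2%. All called genes kept their direction within each slide that held both strains, where 1 or 2 arrays a strain allow no test. These were slides 4 and 6 for gWAT, slide 3 for BAT and slide 4 for muscle, and their arrays also gave the calls. On slide 3 the BAT differences were smaller (Acaca -0.60 against -1.08, Scd3 -0.54 against -1.77), except that of Acsl3 among the called genes (-0.88 against -0.70). Other slides held 1 strain of a tissue at most, so strain and slide cannot be told apart there.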
